A study of Mus musculus with 28 samples.

Results

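Wild-type (WT) satellite cells of mouse skeletal muscle, sorted fresh by FACS and labelled as quiescent, were sequenced as polyA RNA in 5 libraries, and the 5 lie in 2 separately deposited tables. The table that sets quiescent against cultured WT cells holds 2 of them (state-table libraries, indices 0 and 1). The table that sets SIRT1mKO against WT fresh cells holds the other 3 (genotype-table libraries, indices 0, 1 and 2). They make up 5 of the 28 samples of the series and 5 of its 18 RNA libraries. Their fragment counts were joined by gene symbol, kept where the status was OK in every one of the 5, and normalised together, which left 22517 of 22552 genes. All 5 are WT on a C57Bl/6 background and carry the same labels. No label says which animals, day or sort a library came from, so the table, the preparation and the sequencing cannot be told apart. A difference is therefore stated between the 2 state-table and the 3 genotype-table libraries. Nothing says that the replicates came from separate animals, so a p-value reflects the scatter of these libraries alone, part or all of which may be technical.

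The study asked what the NAD-dependent deacetylase SIRT1 does in satellite cells. In its SIRT1mKO mice, a Cre knocked into Pax7 acts on floxed exon 4 of Sirt1, and 3 fresh libraries of these mice (KO_FI) share the genotype table. Cultured WT cells, grown in serum (20%) with bFGF (12.5 ng/ml), gave 2 libraries in the state table and 2 in a table that sets SIRT1mKO against WT cultured cells. KO_FI and cultured libraries are used below only where named.

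Satellite cells are the stem cells of skeletal muscle. They lie under the basal lamina of the muscle fibre, are marked by the transcription factor Pax7, and in the resting state hold off the myogenic programme through Notch, calcitonin receptor and Sprouty signals. To isolate them, muscle is cut, digested with enzymes and sorted, and they are separated from fibro-adipogenic progenitors, tenocytes, endothelial cells, pericytes, smooth muscle, Schwann cells and leukocytes that share the tissue. Tissue dissociation is known to induce immediate early and heat shock genes, so such transcripts are commonly read as a record of handling.

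Depth was 24254119 and 29491305 fragments in the state-table libraries and 55138738, 33709029 and 28010691 fragments in the genotype-table libraries. The 10 most abundant genes took 7.38% and 7.66% of the fragments in the state-table libraries, against 5.17%, 5.05% and 4.53% in the genotype-table libraries. No pair of the 5 was a copy of another, since chi-square per degree of freedom over genes was 94.3 or more in all 10 pairs, lowest between the state-table libraries. Across genes, which are not independent replicates, Spearman's rho of log2 CPM (the deposited fragments relative to TMM-scaled library sizes) was 0.977 between the state-table libraries. Within the genotype table it was 0.974 between indices 1 and 2, but 0.935 and 0.946 between index 0 and those. Between the table sets it ran over 0.846 to 0.933, highest between state index 0 and genotype index 0. The first principal component, with 68.9% of the variance, put the state-table libraries at −79.9 and −102.4, genotype index 0 at −3.1 and genotype indices 1 and 2 at 104.4 and 81.0.

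A feature of the counting set genotype index 0 apart in the same way. The deposited fragments are estimates, and 7.80% and 7.55% of the values above 0 were not whole numbers (tolerance 0.01) in the state-table libraries, against 8.18% in genotype index 0 and 2.68% and 2.43% in genotype indices 1 and 2. KO_FI index 0 was at 8.11%, and KO_FI indices 1 and 2 were at 2.82% and 2.71%. Libraries with the high share held almost no fragments of some abundant genes that have many near-identical copies in the genome. Gapdh, the glycolytic enzyme, had 0.488 and 0.525 CPM in the state-table libraries, against 0.882 CPM in genotype index 0 and 591 and 432 CPM in genotype indices 1 and 2. Tpt1, which encodes a translationally controlled tumour protein, had 0 fragments in both state-table libraries, against 20.3, 3785 and 2397 CPM in the genotype table. With 3 fragments in each state-table library taken as the limit of a 0, for counting error alone, the Tpt1 mean in the state-table libraries was at least 17631-fold lower than the genotype-table mean and at least 173-fold lower than genotype index 0. Because 1 genotype-table library had a share of non-whole values like that of the state-table libraries, each result was also computed within this class (2 state-table libraries over genotype index 0), and over all 8 fresh libraries with the class and the genotype as terms. Both were chosen after seeing the data. In the genotype table the class sets index 0 against indices 1 and 2, so counting, preparation and sequencing cannot be told apart. The class term draws on WT and KO_FI, so a gap between KO_FI index 0 and indices 1 and 2 enters its folds. Within the class 1 library stands for the genotype table. The p-values and calls within the class thus reflect no spread among genotype-table libraries.

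Over the 5 libraries, edgeR's quasi-likelihood test with Benjamini-Hochberg adjustment (threshold 0.05) called 2832 of 15304 genes (18.5%). Of these, 1707 were higher (11.2%) and 1125 lower (7.35%) in the state-table libraries, and 5867 genes had an unadjusted p under 0.05. The median log2 fold over all genes tested was −0.04. The sets did not overlap for 8658 genes (56.6%). Within the class the test called 1364 of 15365 genes (8.88%, of which 5.06% higher and 3.81% lower), and with the class term it called 3915 of 15653 (25.0%, of which 13.5% higher and 11.5% lower). Of the 2832 genes, 2831 were tested in both of these fits and every one kept its direction, while 1170 (41.3%) were called within the class and 2581 (91.1%) with the class term. The 2 fits share libraries with the first, so they are not independent of it. These shares over all genes, fit by fit, are the background for the list counts below, many of which are small. Without state-table index 0 or without index 1, edgeR called 0 genes, with 4731 and 3571 genes at an unadjusted p under 0.05, whereas DESeq2 called 3963 and 2519. Every call of the 5-library test named below was lost in edgeR without either state-table library, although no called gene named below changed direction. Whether a call held within the class is stated for some of these genes only, so a gene without such a word may have lost it.

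The KO_FI libraries were not used in the contrast. Of 2831 called genes that could be read in all 8 fresh libraries, 2796 (98.8%) had both state-table values outside the range of all 6 genotype-table libraries. Over all genes of the 8-library fit the share was 49.5%. The called genes were chosen for their distance from 3 of those 6 libraries, which raises their share, and nothing is read from it.

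The level of 28 gene lists by library is shown as a heat map. State-table libraries were above the genotype-table libraries in fibroblast, tenocyte, pericyte and smooth muscle, Schwann and muscle lists, and below them in satellite cell, myogenic, immediate early and heat shock lists.

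**Figure D1:**
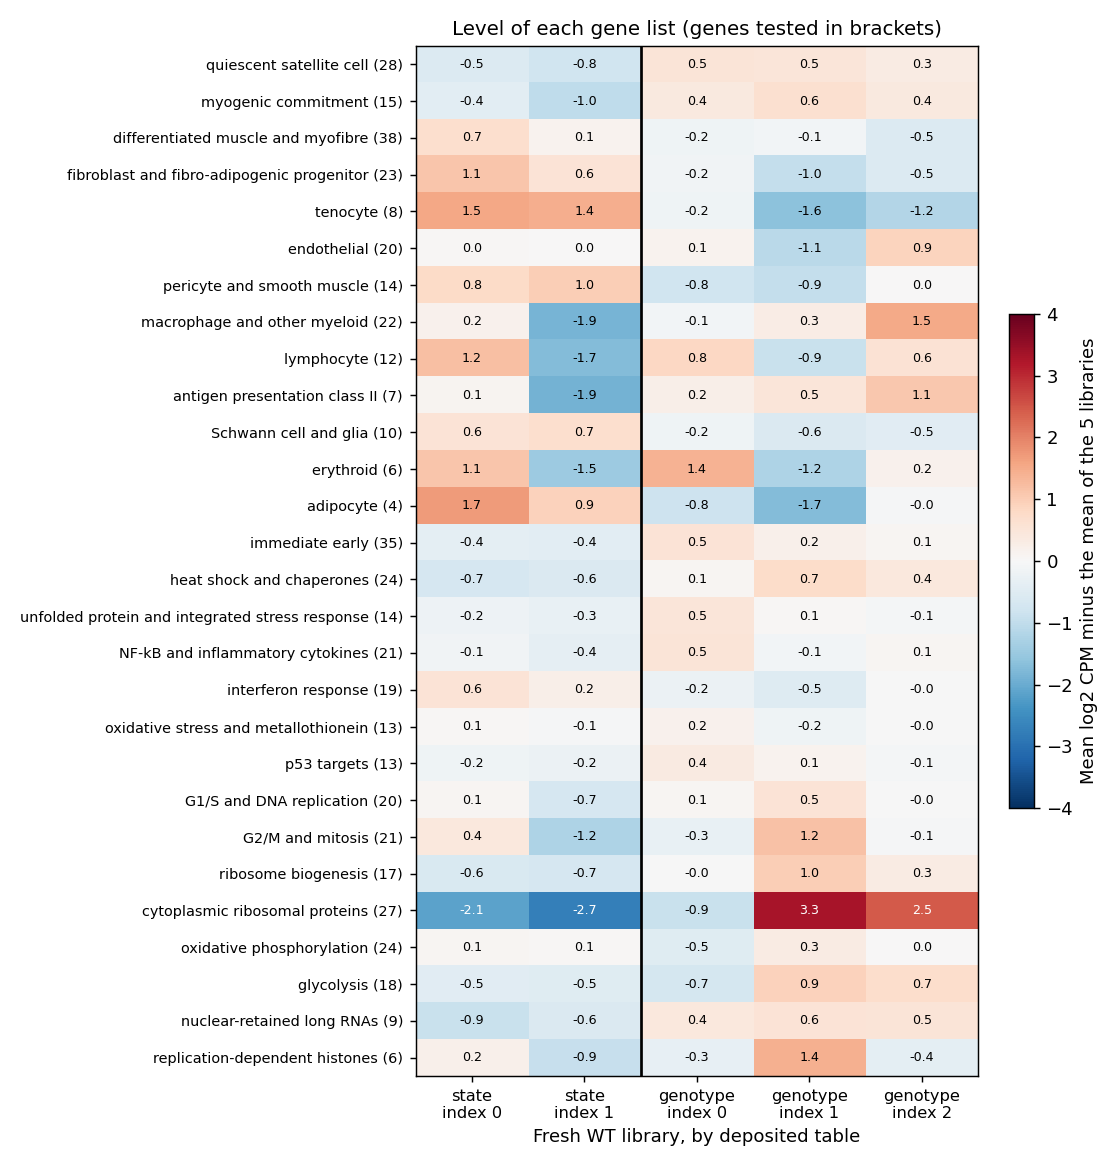
Mean log2 CPM of the measured genes of each list in each fresh WT library (columns, the 2 state-table libraries left of the line and the 3 genotype-table libraries right of it), less the mean of the 5 libraries; red is above and blue below that mean. The tenocyte list stood at 1.5 and 1.4 in the state-table libraries and at −0.2, −1.6 and −1.2 in the genotype-table libraries, and the ribosomal protein list separated genotype indices 1 and 2 from the other 3 libraries.

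Transcripts that define resting satellite cells were lower in the state-table libraries. Of 28 measured genes of that list, 16 were called lower and 2 higher, with a median log2 fold of −1.22, beside 7.35% lower and 11.2% higher over all genes. Within the class 12 were called lower and 0 higher (median −1.36), and with the class term 16 were lower and 2 higher (median −1.10). Their summed level was 10081 and 9898 CPM in the state-table libraries, against 21027, 19637 and 18151 CPM in the genotype-table libraries. In sorted bulk RNA, fewer cells of a type and less of its RNA per cell cannot be told apart.

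Pax7, the paired-box factor that maintains satellite cells, was at 141 and 123 CPM in the state-table libraries, against 1062, 803 and 834 CPM in the genotype-table libraries. Both state-table values lay far below all of the others, and the sets did not overlap, as for 56.6% of all genes. The means were 132 ± 12.6 CPM (SD, n = 2) and 900 ± 142 CPM (SD, n = 3), a log2 fold of −2.77 (SE 0.26, adjusted p = 0.0169, edgeR). The fold was −3.02 within the class and −2.81 with the class term (adjusted p = 0.00318, edgeR). KO_FI libraries held 900, 1055 and 1022 CPM of Pax7, in the range of the WT libraries of their own table.

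Myf5, the myogenic factor already transcribed in most resting satellite cells, was at 74.7 and 62.3 CPM in the state-table libraries, against 293, 315 and 290 CPM in the genotype-table libraries. The 3 genotype-table values were close together and about 4.37 times the state-table mean, with a log2 fold of −2.13 (SE 0.20, adjusted p = 0.0169, edgeR). Pax3, the relative of Pax7, was at 3.29 and 2.77 CPM in the state-table libraries, against 12.5, 12.1 and 11.9 CPM in the genotype-table libraries (log2 fold −2.0). Calcr, the calcitonin receptor that holds the cells in quiescence, was at 94.7 and 86.1 CPM, against 330, 226 and 238 CPM, and genotype index 0 was the highest (log2 fold −1.55, adjusted p = 0.0219). All 3 were also called lower within the class.

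Chrdl2, a secreted BMP antagonist enriched in satellite cells, was at 66.8 and 60.3 CPM in the state-table libraries, against 372, 421 and 290 CPM in the genotype-table libraries (log2 fold −2.51, SE 0.25, adjusted p = 0.0169, edgeR). Spry1, an inhibitor of FGF signalling, was at 322 and 188 CPM in the state-table libraries, against 966, 1089 and 955 CPM in the genotype-table libraries (log2 fold −1.98). Cdh15, or M-cadherin, which joins the satellite cell to its fibre, was at 111 and 57.1 CPM, against 474, 539 and 416 CPM (log2 fold −2.51). For Spry1 and Cdh15 state index 1 was the lowest of the 5 libraries. Neither gene overlapped between the sets, as for 56.6% of all genes.

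Some surface proteins in common use for sorting satellite cells were called lower and others were not, while the labels name no marker for this sort. Vcam1 was at 252 and 183 CPM in the state-table libraries, against 573, 529 and 435 CPM in the genotype-table libraries (log2 fold −1.23, adjusted p = 0.032, edgeR). Cd34, which other progenitors and endothelial cells also carry, was at 211 and 137 CPM, against 450, 376 and 339 CPM (log2 fold −1.16, adjusted p = 0.0425). Neither was called within the class (adjusted p = 0.0608 and 0.0714). Itga7, the laminin-binding integrin, was at 662 and 681 CPM in the state-table libraries, against 767, 849 and 768 CPM in the genotype-table libraries, and its log2 fold of −0.24 did not pass (adjusted p = 0.407). Smooth muscle also expresses Itga7. Sdc4, the heparan sulfate proteoglycan syndecan-4, was at 899 and 897 CPM, against 3043, 1509 and 1569 CPM, with genotype index 0 far above the rest (log2 fold −1.18, adjusted p = 0.0853). Within the class Sdc4 was called, at −1.77 (adjusted p = 0.0289).

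The 2 members of the quiescence list called higher were Cav1 and Cav2, caveolins that endothelial and smooth muscle cells also make. Cav1 was at 1241 and 1561 CPM in the state-table libraries, against 624, 557 and 780 CPM in the genotype-table libraries (log2 fold 1.10, adjusted p = 0.0374, edgeR). Cav2 was at 166 and 275 CPM, against 72.7, 48.5 and 96.6 CPM (log2 fold 1.60, adjusted p = 0.0368). Neither was called within the class (adjusted p = 0.148 and 0.0642).

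The genes of myogenic commitment followed the same direction, set beside 7.35% called lower and 11.2% higher over all genes. Of 15 measured, 9 were called lower and 1 higher (median −1.38), within the class 6 were lower and 1 higher (median −1.62), and with the class term 9 and 1 (median −1.45). Eya1, a coactivator of myogenic homeobox factors, was at 13.1 and 10.7 CPM in the state-table libraries, against 45.2, 37.4 and 48.8 CPM in the genotype-table libraries (log2 fold −1.88, adjusted p = 0.0169, edgeR). Dmrt2, which lies upstream of Myf5 in the somite, had a log2 fold of −2.56, and Msc, the bHLH repressor musculin, one of −2.19. Mef2c, a factor of muscle and also of vascular smooth muscle, was the member called higher, at 245 and 461 CPM in the state-table libraries, against 49.9, 46.5 and 112 CPM in the genotype-table libraries (log2 fold 2.34).

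Myod1, which drives activation, was at 45.9 and 14.6 CPM in the state-table libraries, against 140, 243 and 130 CPM in the genotype-table libraries (log2 fold −2.50, SE 0.59, adjusted p = 0.0411, edgeR). State index 1 was the lowest and genotype index 1 the highest. Within the class the Myod1 fold was −2.21 and was not called (adjusted p = 0.189). Myog, the factor of terminal differentiation, overlapped between the sets, with 235 and 14 CPM in the state-table libraries and 41.0, 217 and 36.0 CPM in the genotype-table libraries. State index 0 and genotype index 1 were high in Myog and the other 3 low, and the log2 fold of 0.35 did not pass (adjusted p = 0.860).

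**Figure D2:**
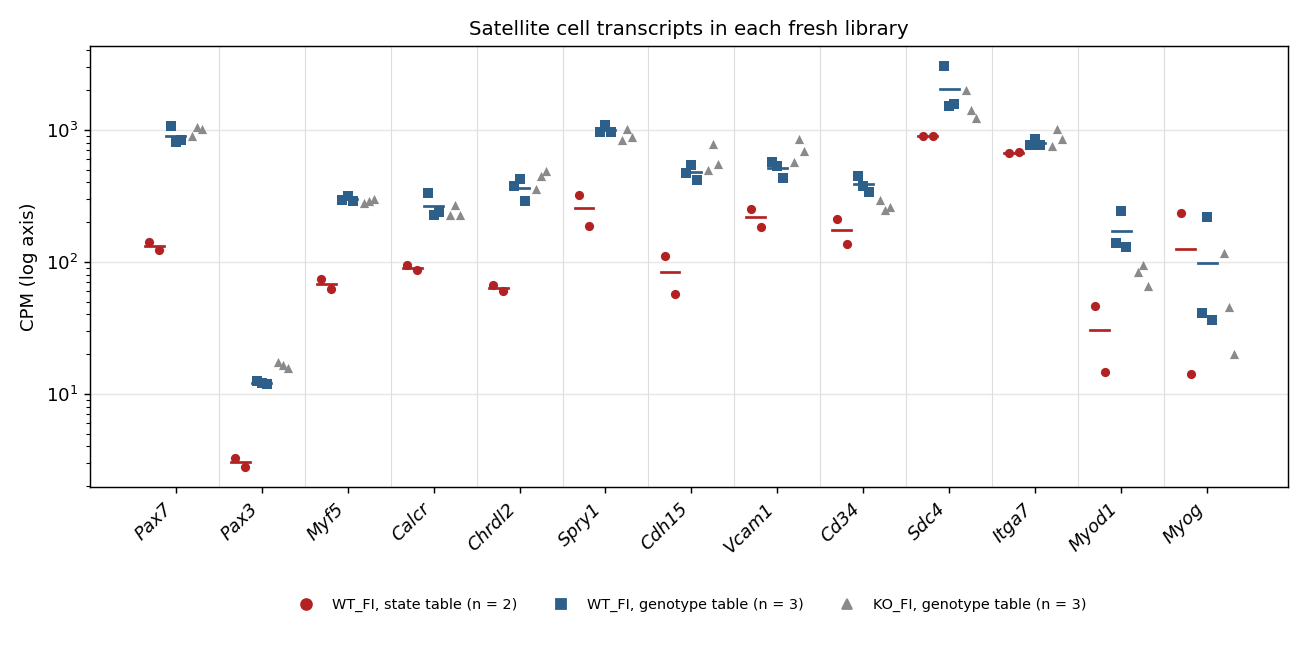
CPM (log axis) of 13 satellite cell transcripts in each fresh library, with circles for the 2 state-table WT libraries, squares for the 3 genotype-table WT libraries, triangles for the 3 KO_FI libraries of that table, and lines at the WT means. State-table Pax7 lies at 141 and 123 CPM, below every genotype-table library, whereas Myog overlaps.

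Transcripts of the Dlk1-Dio3 imprinted locus were also lower. Meg3, its maternally expressed long RNA, was at 362 and 345 CPM in the state-table libraries, against 1935, 1951 and 1997 CPM in the genotype-table libraries, a log2 fold of −2.47 (SE 0.22, adjusted p = 0.0169, edgeR). Rian and Mirg, made from the same locus, had log2 folds of −2.01 and −1.76. The sets did not overlap for any of the 3, as for 56.6% of all genes. These 3 were the members called lower among 9 nuclear-retained long RNAs (0 higher, median −1.06), and the same count held within the class (3 lower, 0 higher). All 3 were called within the class (adjusted p = 0.00853, 0.0361 and 0.049, edgeR).

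Genes of differentiated muscle and the myofibre split in 2 directions, while over all genes 11.2% were called higher and 7.35% lower. Of 38 measured, 7 were called higher and 6 lower (median 0.94), within the class 6 were higher and 4 lower (median 0.59), and with the class term 7 and 6 (median 0.62). Casq1, which stores calcium in fast fibres, was at 16.9 and 17.2 CPM in the state-table libraries, against 3.69, 3.43 and 3.36 CPM in the genotype-table libraries (log2 fold 2.29, SE 0.21, adjusted p = 0.0169, edgeR). Tcap, or telethonin, was at 25.7 and 34.3 CPM, against 3.76, 5.84 and 7.20 CPM (log2 fold 2.43), and Acta1, skeletal alpha-actin, at 166 and 157 CPM, against 29.9, 50.1 and 14 CPM (log2 fold 2.36). All 3 were clear of overlap, as were 56.6% of all genes. With the class term Tcap and Acta1 were not called (adjusted p = 0.0536 and 0.130).

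In the opposite direction, Actn3, the fast-fibre alpha-actinin, was at 42.5 and 35.6 CPM in the state-table libraries, against 159, 133 and 145 CPM in the genotype-table libraries (log2 fold −1.90, SE 0.19, adjusted p = 0.0169, edgeR). Mybpc1, a myosin-binding protein of slow fibres, was at 37.0 and 43.3 CPM, against 239, 153 and 138 CPM (log2 fold −2.14). KO_FI libraries held 178, 204 and 194 CPM of Actn3. Contractile genes thus did not move as 1 group between the sets.

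Markers of fibroblasts and fibro-adipogenic progenitors, the collagen-making cells of muscle connective tissue, were mostly higher in the state-table libraries. Of 23 measured, 9 were called higher and 1 lower (median 1.37), within the class 6 and 0 (median 1.25), and with the class term 11 and 1 (median 1.36). Over all genes 11.2% were called higher and 7.35% lower. The summed level of these markers was 37451 and 28062 CPM in the state-table libraries, against 10128, 7341 and 7909 CPM in the genotype-table libraries.

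Col1a1, a chain of type I collagen, was at 8349 and 5458 CPM in the state-table libraries, against 1108, 581 and 726 CPM in the genotype-table libraries. The means were 6903 ± 2045 CPM (SD, n = 2) and 805 ± 272 CPM (SD, n = 3), a log2 fold of 3.10 (SE 0.38, adjusted p = 0.0172, edgeR). Col1a2, the partner chain, was at 11774 and 9413 CPM, against 1476, 707 and 909 CPM (log2 fold 3.36), with genotype index 0 the highest of its table for both chains. Postn, the matrix protein periostin, had a log2 fold of 2.74, Lum, or lumican, one of 2.77 and Mfap5, a microfibril protein, one of 1.96.

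Not every fibroblast gene followed the collagens. Dcn, or decorin, was at 2975 and 2510 CPM in the state-table libraries, against 1050, 375 and 566 CPM in the genotype-table libraries, and was called over the 5 libraries (log2 fold 2.05, adjusted p = 0.0361, edgeR) but not within the class (1.38, adjusted p = 0.0976). Pdgfra, the receptor that defines fibro-adipogenic progenitors, was at 166 and 89.5 CPM, against 65.0, 12.2 and 23.4 CPM, and did not pass (log2 fold 1.93, adjusted p = 0.108). Col3a1 (log2 fold 0.79) and Ly6a, or Sca-1 (0.59), did not pass either. Dpt, the matrix protein dermatopontin, was the member called lower, at 221 and 137 CPM in the state-table libraries, against 497, 408 and 408 CPM in the genotype-table libraries (log2 fold −1.29, adjusted p = 0.0361), and was not called within the class (adjusted p = 0.0617).

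Tenocyte genes, of the cells that build tendon, were higher in 5 of 8 measured, with 0 lower (median 2.51), and 4 were higher both within the class (median 1.61) and with the class term (median 1.41). The 5-library shares over all genes were 11.2% higher and 7.35% lower. Tnmd, or tenomodulin, was at 344 and 359 CPM in the state-table libraries, against 38.6, 21.8 and 25.8 CPM in the genotype-table libraries, about 12.2 times the genotype-table mean (log2 fold 3.61, SE 0.29, adjusted p = 0.0169, edgeR). Kera, the tendon and corneal proteoglycan keratocan, was at 234 and 241 CPM, against 47.9, 28 and 28.5 CPM (log2 fold 2.77). Mkx, a homeobox factor of tendon, was at 27.4 and 33.6 CPM, against 10.3, 4.51 and 5.32 CPM (log2 fold 2.18), and Thbs4, a thrombospondin of tendon matrix, had a log2 fold of 2.60. Kera was not called with the class term (adjusted p = 0.0523). For these 4 genes index 0 was the highest of the genotype table. In KO_FI, Tnmd was at 35.7 CPM in index 0 and at 3.72 and 5.51 CPM in indices 1 and 2.

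The 14 largest folds upward, by the rule for named genes, were of several kinds, cartilage, bone and matrix genes among them. Col10a1, a collagen of hypertrophic cartilage, was at 244 and 84.7 CPM in the state-table libraries, against 2.80, 2.53 and 0.175 CPM in the genotype-table libraries (log2 fold 6.45, SE 1.06, adjusted p = 0.0229, edgeR). Col22a1, a collagen of the muscle and tendon junction, was at 443 and 450 CPM, against 24.2, 13.5 and 17.6 CPM (log2 fold 4.60, adjusted p = 0.0169). Mmp13, the collagenase, was at 172 and 92.5 CPM, against 7.36, 4.08 and 4.97 CPM (log2 fold 4.59). Tnfrsf11b, or osteoprotegerin, had a log2 fold of 4.72, Tnn, or tenascin-W, 4.44, Cthrc1 4.19, Ostn, or musclin, 4.13, Spp1, or osteopontin, 4.11 and Acan, the cartilage proteoglycan aggrecan, 4.02. The second largest fold was that of Otogl, an otogelin relative of the inner ear, at 5.24. A2m, the protease inhibitor alpha-2-macroglobulin, had one of 4.71 and Dsc3, a desmosomal cadherin, one of 4.14, and neither was called with the class term (adjusted p = 0.0635 and 0.110, edgeR).

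State index 0 exceeded index 1 in Col10a1 and Mmp13, and far more in the fat cell hormone Adipoq, at 21.4 and 2.40 CPM in the state-table libraries, against 0.564, 0.278 and 0.385 CPM in the genotype-table libraries. Adipoq was called over the 5 libraries (log2 fold 4.83, adjusted p = 0.0294, edgeR) but not within the class (adjusted p = 0.370) or with the class term (adjusted p = 0.0800). It was the only called gene of 4 measured adipocyte genes. Cxcl13, a chemokine for B cells, was at 35.8 and 20.4 CPM in the state-table libraries, against 2.36, 0.525 and 1.54 CPM in the genotype-table libraries (log2 fold 4.23).

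Mural cells of the vessels are pericytes and smooth muscle. Contractile genes of smooth muscle were higher in the state-table libraries, whereas several pericyte genes did not pass. Of 14 measured genes of both cell types, 6 were called higher and 0 lower (median 1.39), with 10 estimates above 0 and 4 below, within the class 5 and 0 (median 1.40), and with the class term 6 and 0 (median 1.31). Over all genes 11.2% were called higher and 7.35% lower. The summed level of the 14 genes was 26666 and 36923 CPM in the state-table libraries, against 7625, 7242 and 11969 CPM in the genotype-table libraries.

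Acta2, smooth muscle alpha-actin, was at 8914 and 10841 CPM in the state-table libraries, against 733, 1530 and 2596 CPM in the genotype-table libraries (log2 fold 2.61, SE 0.53, adjusted p = 0.031, edgeR). Myh11, the smooth muscle myosin heavy chain, was at 6301 and 12772 CPM, against 528, 699 and 1813 CPM (log2 fold 3.23, adjusted p = 0.029). State index 1 was the highest for both and genotype index 0 the lowest, so the folds within the class were larger, at 3.75 and 4.17. Tagln, an actin-binding protein of smooth muscle, had a log2 fold of 2.86 and Cnn1, or calponin, one of 3.38. Mcam and Cspg4, which pericytes share, had log2 folds of 1.62 and 1.61.

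The receptor Pdgfrb, a marker of pericytes, was at 797 and 877 CPM in the state-table libraries, against 392, 287 and 669 CPM in the genotype-table libraries, and did not pass (log2 fold 0.90, adjusted p = 0.147, edgeR). Rgs5, a pericyte regulator of G-protein signalling, was at 1078 and 1651 CPM, against 596, 304 and 912 CPM, and did not pass either (log2 fold 1.18, adjusted p = 0.136). Genotype index 2 came nearest to the state-table libraries for both genes. Kcnj8 and Abcc9, which encode the potassium channel of pericytes, overlapped between the sets. Kcnj8 was at 178 and 103 CPM in the state-table libraries, against 167, 128 and 289 CPM in the genotype-table libraries (log2 fold −0.47, adjusted p = 0.458, edgeR). Abcc9 was at 356 and 426 CPM, against 484, 223 and 619 CPM (log2 fold −0.18, adjusted p = 0.796).

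Endothelial genes, of the cells that line the vessels, did not separate the sets. Of 20 measured, 0 were called higher and 1 lower (median −0.18), and 9 estimates were above 0 and 11 below. Within the class 1 was called higher and 1 lower, and with the class term 0 and 1. The 5-library shares over all genes were 11.2% higher and 7.35% lower. Pecam1, or CD31, was at 88.4 and 94.5 CPM in the state-table libraries, against 72.9, 29.1 and 129 CPM in the genotype-table libraries (log2 fold 0.25, adjusted p = 0.775, edgeR). Cdh5, the cadherin of endothelial junctions, was at 90.1 and 112 CPM, against 77.9, 34.6 and 149 CPM (log2 fold 0.22, adjusted p = 0.804), and Kdr, the VEGF receptor, at 27.1 and 29.0 CPM, against 37.5, 13.7 and 73.4 CPM (log2 fold −0.57, adjusted p = 0.559). In all 3 genes genotype index 1 was the lowest of the 5 libraries and genotype index 2 the highest, with the state-table libraries between. Tek, the angiopoietin receptor, was the member called lower, at 38.8 and 44.4 CPM, against 103, 63.9 and 97.3 CPM (log2 fold −1.08, adjusted p = 0.041). Esam, an adhesion molecule, had a log2 fold of 1.45 that did not pass (adjusted p = 0.0528) but passed within the class (1.62, adjusted p = 0.0343).

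Schwann cell genes, of the glia that sheathe the intramuscular nerves, were higher in 6 of 10 measured and lower in 1 (median 1.27), within the class 2 were higher and 1 lower (median 1.15), and with the class term 6 and 1 (median 1.16). Over all genes the 5-library test called 11.2% higher and 7.35% lower. Mbp, myelin basic protein, was at 457 and 459 CPM in the state-table libraries, against 162, 143 and 177 CPM in the genotype-table libraries (log2 fold 1.51, adjusted p = 0.0174, edgeR), and the state-table values were nearly equal. Mbp was not called within the class (adjusted p = 0.0594). S100b, a calcium-binding protein of glia, had a log2 fold of 1.65 and was called within the class (adjusted p = 0.0289), and Cnp, a myelin enzyme, had one of 1.45. Sox10, the lineage factor, was at 180 and 144 CPM, against 128, 90.4 and 98.5 CPM, and did not pass (log2 fold 0.62, adjusted p = 0.105). The member called lower was Egr2, which also belongs to the immediate early genes.

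**Figure D3:**
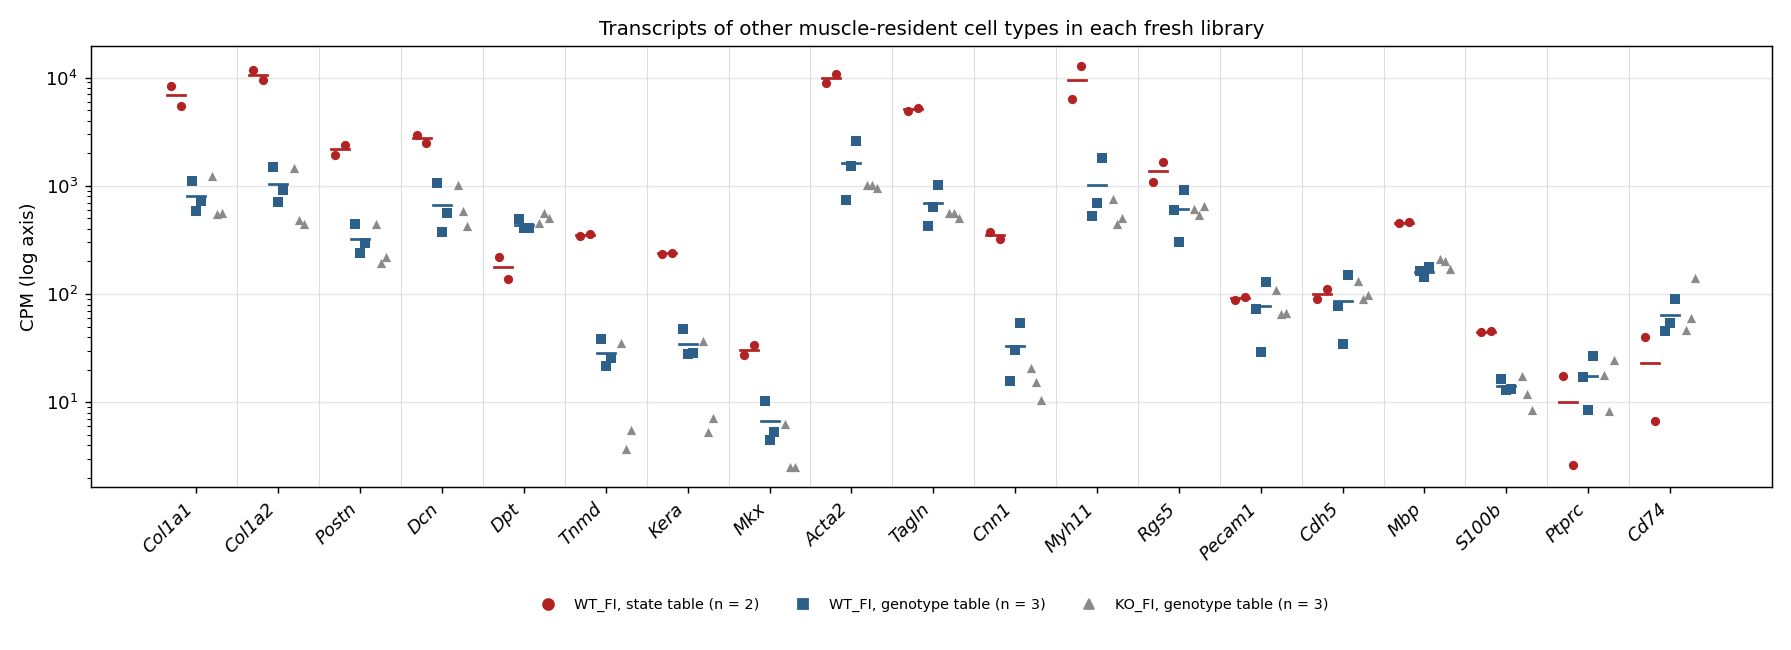
CPM (log axis) of transcripts of fibroblasts, tenocytes, mural cells, endothelium, Schwann cells and leukocytes in each fresh library, marked as circles (state-table WT), squares (genotype-table WT) and triangles (KO_FI), with lines at the WT means. Col1a1 lies at 8349 and 5458 CPM in the state-table libraries, against at most 1108 CPM in the genotype-table libraries, whereas Pecam1, Cdh5 and Ptprc overlap.

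Immune transcripts were mostly low in all 5 libraries and varied within each set. Lyz2, a macrophage marker, stood at 196 and 191 CPM in the state-table libraries, against 108, 89.5 and 216 CPM in the genotype-table libraries. Its values overlapped between the sets. Of 22 measured macrophage and myeloid genes, 0 were called higher and 1 lower (median −1.44), within the class 0 in either direction (median −0.53), and with the class term 1 higher and 0 lower (median −0.74). Over the 5 libraries the estimates of 19 of the 22 lay below 0, and 5 genes had an unadjusted p under 0.05 in edgeR. DESeq2 called 7 lower and 0 higher. The median of the list ran over −2.89 to −0.76 with 1 of the 5 libraries left out. Their summed level was 622 and 246 CPM in the state-table libraries, against 339, 380 and 1069 CPM in the genotype-table libraries, with genotype index 2 the highest. Cd68, a lysosomal protein of macrophages, was the called member, at 2.64 and 2.14 CPM, against 5.82, 7.32 and 7.06 CPM (log2 fold −1.49, adjusted p = 0.0302, edgeR). Csf1r, the growth factor receptor of macrophages, was at 4.15 and 1.57 CPM, against 8.13, 8.68 and 20.0 CPM, and did not pass (log2 fold −2.10, adjusted p = 0.0709), nor did the complement gene C1qc (log2 fold −2.80, adjusted p = 0.0632). With the class term Cd68 was not called (adjusted p = 0.0714), and the member called was Cd163, a scavenger receptor of tissue macrophages, higher (log2 fold 2.47, adjusted p = 0.0155, edgeR).

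Ptprc, the CD45 antigen of all leukocytes, was at 17.7 and 2.62 CPM in the state-table libraries, against 17.2, 8.59 and 27.0 CPM in the genotype-table libraries, and overlapped (log2 fold −0.80, adjusted p = 0.530, edgeR). Cd74, the class II invariant chain, was at 39.7 and 6.79 CPM, against 45.2, 54.5 and 90.8 CPM (log2 fold −1.45, adjusted p = 0.216). State index 1 was the lowest of the 5 for both. The 12 lymphocyte genes measured summed to 63 and 6 CPM in the state-table libraries, against 45, 13 and 41 CPM in the genotype-table libraries, and the 6 erythroid genes to 105 and 20 CPM, against 178, 17 and 54 CPM. State index 1 and genotype index 1 were thus the lowest of their table in both lists, and over the 5 libraries edgeR called no member of either list, or of the 7 class II genes. A single erythroid gene, the globin gene Hbb-b1, was called lower with the class term (log2 fold −1.66, adjusted p = 0.0335, edgeR). None of these 25 genes had an unadjusted p under 0.05 over the 5 libraries, and DESeq2 called 1, a class II gene, lower. The low number of leukocyte fragments limits what these comparisons can show.

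Immediate early genes, transcription factors and feedback regulators induced within minutes of a stimulus, were mostly lower in the state-table libraries. Of 35 measured, 12 were called lower and 2 higher (median −0.65), within the class 10 and 0 (median −0.88), and with the class term 19 and 2 (median −1.04). Over all genes the 5-library test called 7.35% lower and 11.2% higher. In KO_FI the mean log2 CPM of this list was 8.8 in index 0, against 7.6 and 7.8 in indices 1 and 2. The class-term counts draw on that gap. The summed level of the list was 20460 and 20485 CPM in the state-table libraries, against 48543, 44353 and 38892 CPM in the genotype-table libraries. Fos, Jun and Egr1 were left out, because the genotype table marks them as too deep to estimate and lists 0 fragments, while the state table gives 167968 and 192328 fragments for Fos. Their absence from the count removes 3 of the most abundant members.

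Junb, a partner of Fos in AP-1, was at 674 and 408 CPM in the state-table libraries, against 6523, 7133 and 5807 CPM in the genotype-table libraries. The means were 541 ± 188 CPM (SD, n = 2) and 6487 ± 663 CPM (SD, n = 3), a log2 fold of −3.58 (SE 0.35, adjusted p = 0.0169, edgeR). Jund, its constitutive relative, was at 349 and 175 CPM, against 3888, 3308 and 2734 CPM (log2 fold −3.66), and was thus lower to a like extent. Within the class the folds were −3.60 and −3.90, and KO_FI libraries held 7407, 5615 and 4445 CPM of Junb.

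Other members differed by less. Zfp36l1, which destabilises mRNAs, was at 626 and 643 CPM in the state-table libraries, against 2105, 2144 and 2456 CPM in the genotype-table libraries (log2 fold −1.82, adjusted p = 0.0173, edgeR). Klf4, a zinc-finger factor, was at 230 and 258 CPM, against 609, 621 and 488 CPM (log2 fold −1.23), and Nr4a1, an orphan nuclear receptor, at 2030 and 2033 CPM, against 4658, 3916 and 3471 CPM (log2 fold −0.98). Klf4 and Nr4a1 were not called within the class (adjusted p = 0.0632 and 0.108). KO_FI held 3933 CPM of Nr4a1 in index 0 and 1981 and 2052 CPM in indices 1 and 2, level with the state-table libraries. Fosb was at 2438 and 2314 CPM, against 7650, 5053 and 4269 CPM, and did not pass over the 5 libraries (log2 fold −1.25, adjusted p = 0.0516), but passed within the class (−1.69, adjusted p = 0.0374).

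Atf3, another factor that dissociation induces, overlapped, with 1735 and 2218 CPM in the state-table libraries and 2013, 1808 and 1330 CPM in the genotype-table libraries (log2 fold 0.20, adjusted p = 0.622, edgeR). KO_FI held 1967 CPM in index 0 and 304 and 330 CPM in indices 1 and 2, and with the class term the Atf3 fold turned to −0.997 (adjusted p = 0.292). The 2 members called higher were Dusp6, a phosphatase of ERK (log2 fold 0.82), and Ctgf, a matrix-linked growth factor, at 1170 and 1152 CPM in the state-table libraries, against 372, 277 and 406 CPM in the genotype-table libraries (log2 fold 1.72). Fibroblasts and mural cells also make Ctgf.

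Heat shock genes encode chaperones that refold proteins, and many are switched on by HSF1, which binds repeats of GAA and TTC. The promoters of 3 chaperone genes with such letters are shown, since 2 of the genes were called lower in all 3 fits and the last depended on the fit. Dnajb1, also called lower in all 3, held no such match before either of its 2 listed starts. Each run is the 250 bases before the RefSeq start, 5′ to 3′ in the direction of the gene, from RefSeq on GRCm38.p6 (the deposited tables were made on mm9), with every match to GAANNTTC or TTCNNGAA in capitals. Hspe1 lies at chr1:55087898-55088147 (+), Hspb1 at chr5:135887669-135887918 (+) and Hsph1, from the first of 2 listed starts, at chr5:149636337-149636586 (−).
Hspe1: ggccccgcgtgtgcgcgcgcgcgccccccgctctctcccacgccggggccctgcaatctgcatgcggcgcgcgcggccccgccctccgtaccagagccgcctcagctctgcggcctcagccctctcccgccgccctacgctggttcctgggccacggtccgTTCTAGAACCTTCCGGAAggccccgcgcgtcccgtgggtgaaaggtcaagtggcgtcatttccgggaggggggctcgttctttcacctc
Hspb1: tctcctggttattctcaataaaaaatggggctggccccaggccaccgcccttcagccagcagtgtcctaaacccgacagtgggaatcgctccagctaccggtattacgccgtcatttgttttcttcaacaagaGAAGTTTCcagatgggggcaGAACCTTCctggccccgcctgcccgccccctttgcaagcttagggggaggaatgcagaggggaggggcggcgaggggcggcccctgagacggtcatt
Hsph1: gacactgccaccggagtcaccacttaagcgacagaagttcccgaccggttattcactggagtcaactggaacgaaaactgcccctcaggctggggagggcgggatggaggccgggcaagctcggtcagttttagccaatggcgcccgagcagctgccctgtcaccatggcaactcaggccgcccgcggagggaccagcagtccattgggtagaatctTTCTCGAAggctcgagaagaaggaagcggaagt
The windows hold 3 overlapping matches in Hspe1, 2 in Hspb1 and 1 in Hsph1. Both forms read the same on either strand. A promoter was listed for 19 of the 24 measured chaperone genes, and 8 of those 19 (42.1%) held a match, against 14.5% of the 27025 genes with a listed promoter. Among 28 immediate early genes with a promoter, 2 (7.14%) held a heat shock match, while 16 (57.1%) held TGACG on either strand, against 19.8% of all genes. The full cyclic AMP element TGACGTCA, which contains TGACG, was found in 3 of the 28 (10.7%), against 1.77% of all genes, and in 0 of the 19 chaperone genes, of which 12 (63.2%) held TGACG. A match is a description of letters, and binding was not measured.

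Of the 24 measured heat shock and chaperone genes, 9 were called lower and 1 higher in the state-table libraries (median −0.85), within the class 5 and 1 (median −0.77), and with the class term 14 and 0 (median −0.81). The 5-library shares over all genes were 7.35% lower and 11.2% higher. The list's mean log2 CPM in KO_FI was 7.68 in index 0, against 7.11 and 7.15 in indices 1 and 2, and the class-term counts draw on that gap. The summed level of the list was 8070 and 8722 CPM in the state-table libraries, against 19716, 27670 and 23489 CPM in the genotype-table libraries. Hspa8 alone gave 7795 and 7794 CPM of the sums in genotype indices 1 and 2, against 338 CPM in genotype index 0. Hspa1a and Hspa1b, the inducible HSP70 pair, were left out for the same status as Fos.

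Hspe1, the mitochondrial co-chaperonin whose promoter held 3 matches, was at 26.1 and 23.7 CPM in the state-table libraries, against 90.4, 219 and 156 CPM in the genotype-table libraries (log2 fold −2.64, SE 0.41, adjusted p = 0.0217, edgeR). Hspb1, the small heat shock protein HSP27, was at 168 and 139 CPM, against 548, 2080 and 1525 CPM (log2 fold −3.17, SE 0.63, adjusted p = 0.0297). Genotype index 0 lay between the state-table libraries and genotype indices 1 and 2 for both genes, and the folds within the class were −1.87 and −1.84, both called. Dnajb1, the HSP40 partner of HSP70, was at 846 and 798 CPM in the state-table libraries, against 3778, 2502 and 2305 CPM in the genotype-table libraries (log2 fold −1.80, adjusted p = 0.0241), with index 0 the highest.

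Hsph1, an exchange factor for HSP70, was at 509 and 887 CPM in the state-table libraries, against 2268, 1127 and 1105 CPM in the genotype-table libraries, and did not pass over the 5 libraries (log2 fold −1.10, adjusted p = 0.137, edgeR), but passed within the class (−1.71, adjusted p = 0.0499) and with the class term (−2.96, adjusted p = 0.0377). KO_FI indices 1 and 2 held 151 and 201 CPM of Hsph1 and 370 and 345 CPM of Dnajb1, whereas KO_FI index 0 held 2474 and 3855 CPM. State-table values were thus not below every genotype-table library for these chaperones, and the class-term folds of both genes draw on this gap in KO_FI. Hspb8 was the member called higher, at 58.0 and 65.3 CPM in the state-table libraries, against 21.4, 20.5 and 24.5 CPM in the genotype-table libraries (log2 fold 1.48), and was not called with the class term (adjusted p = 0.062).

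The levels of 2 abundant chaperones differed inside the genotype table. Hspa8, the constitutive HSP70, was at 224 and 394 CPM in the state-table libraries, against 338 CPM in genotype index 0 and 7795 and 7794 CPM in genotype indices 1 and 2. Its log2 fold of −4.10 did not pass (adjusted p = 0.0931, edgeR) and was −0.14 within the class (adjusted p = 0.899). Hsp90aa1, the inducible HSP90, was at 137 and 200 CPM, against 428, 2385 and 2038 CPM, and was called over the 5 libraries (log2 fold −3.26, adjusted p = 0.0455) and with the class term (−2.39, adjusted p = 0.0417), but not within the class (−1.35, adjusted p = 0.0694). For Hspa8 the class itself was called (adjusted p = 0.00135), and for Hsp90aa1 it was not (adjusted p = 0.399). KO_FI held 459, 419 and 472 CPM of Hsp90aa1, level with genotype index 0.

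Metallothioneins, small proteins that bind zinc and respond to metals and glucocorticoids, were lower. Mt1 was at 306 and 223 CPM in the state-table libraries, against 1323, 739 and 902 CPM in the genotype-table libraries (log2 fold −1.90, SE 0.35, adjusted p = 0.0266, edgeR). Mt2 was at 263 and 172 CPM, against 1240, 741 and 807 CPM (log2 fold −2.10, adjusted p = 0.024). Both were called within the class and with the class term. They were the 2 members called lower of 13 oxidative stress and metallothionein genes (0 higher, median 0.29), beside 7.35% lower and 11.2% higher over all genes. For the unfolded protein list the mean log2 CPM in KO_FI was 6.17 in index 0, against 5.44 and 5.57 in indices 1 and 2. The class-term fit draws on that gap. Of the 14 measured, Atf4 (log2 fold −0.83) and Ddit4 (−1.53) were called lower and Asns, or asparagine synthetase, higher (1.71). None of the 3 was called within the class, and all 3 were with the class term (adjusted p = 0.0141, 0.0472 and 0.0495, edgeR), where 8 of the 14 were lower and 1 higher.

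Inflammatory transcripts were called in both directions over the 5 libraries. Of 21 measured NF-kB and cytokine genes, 4 were lower and 2 higher (median −0.93), beside 7.35% lower and 11.2% higher over all genes, and within the class 6 and 2 (median −1.09). In the fit with the class term 9 were lower and 0 higher (median −1.37). That fit draws on KO_FI, where the list's mean log2 CPM was 5.97 in index 0, against 4.28 and 4.60 in indices 1 and 2. Cxcl1, a neutrophil chemokine, was at 137 and 170 CPM in the state-table libraries, against 449, 387 and 342 CPM in the genotype-table libraries (log2 fold −1.35, adjusted p = 0.024, edgeR). Socs3, a feedback inhibitor of cytokine signalling, was at 1107 and 929 CPM, against 2502, 2370 and 2008 CPM (log2 fold −1.17). Il6, the cytokine, was at 110 and 190 CPM in the state-table libraries, against 30.7, 12.4 and 27.6 CPM in the genotype-table libraries (log2 fold 2.67, adjusted p = 0.023), and Ptgs2, the inducible prostaglandin synthase, at 32.5 and 44.9 CPM, against 12.8, 6.06 and 12.8 CPM (log2 fold 1.87). With the class term neither Il6 nor Ptgs2 was called (adjusted p = 0.608 and 0.269). Ccl2 overlapped between the sets and did not pass (log2 fold −0.56, adjusted p = 0.308).

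Interferon response genes were higher in 5 of 19 measured and lower in 0 (median 0.38), with 1 higher within the class and 4 with the class term. Ifit1 was at 18.3 and 15.0 CPM in the state-table libraries, against 4.83, 2.19 and 3.57 CPM in the genotype-table libraries (log2 fold 2.23, adjusted p = 0.0229, edgeR), and Ifit3 had a log2 fold of 1.80. Of 13 p53 targets, 1 was called higher and 2 lower (median −0.39, and −0.55 within the class), and with the class term 1 and 6. Their mean log2 CPM in KO_FI was 5.63 in index 0, against 5.03 and 5.16 in indices 1 and 2. The class-term counts draw on that gap. Over all genes 11.2% were higher and 7.35% lower, and with the class term 13.5% and 11.5%. Ccng1, or cyclin G1, was the member called higher, at 90.3 and 99.3 CPM in the state-table libraries, against 45.3, 45.5 and 44.1 CPM in the genotype-table libraries (log2 fold 1.08). Bbc3, the pro-apoptotic PUMA, was called lower, at 4.47 and 2.66 CPM, against 21.1, 22.1 and 10.9 CPM (log2 fold −2.34). Gdf15, a stress-induced cytokine, was the other called lower, at 9.56 and 7.20 CPM in the state-table libraries, against 16.4, 26.1 and 20.9 CPM in the genotype-table libraries (log2 fold −1.33, adjusted p = 0.0335, edgeR). KO_FI held 16.5, 7.38 and 8.05 CPM of Gdf15, the last 2 level with the state-table libraries.

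**Figure D4:**
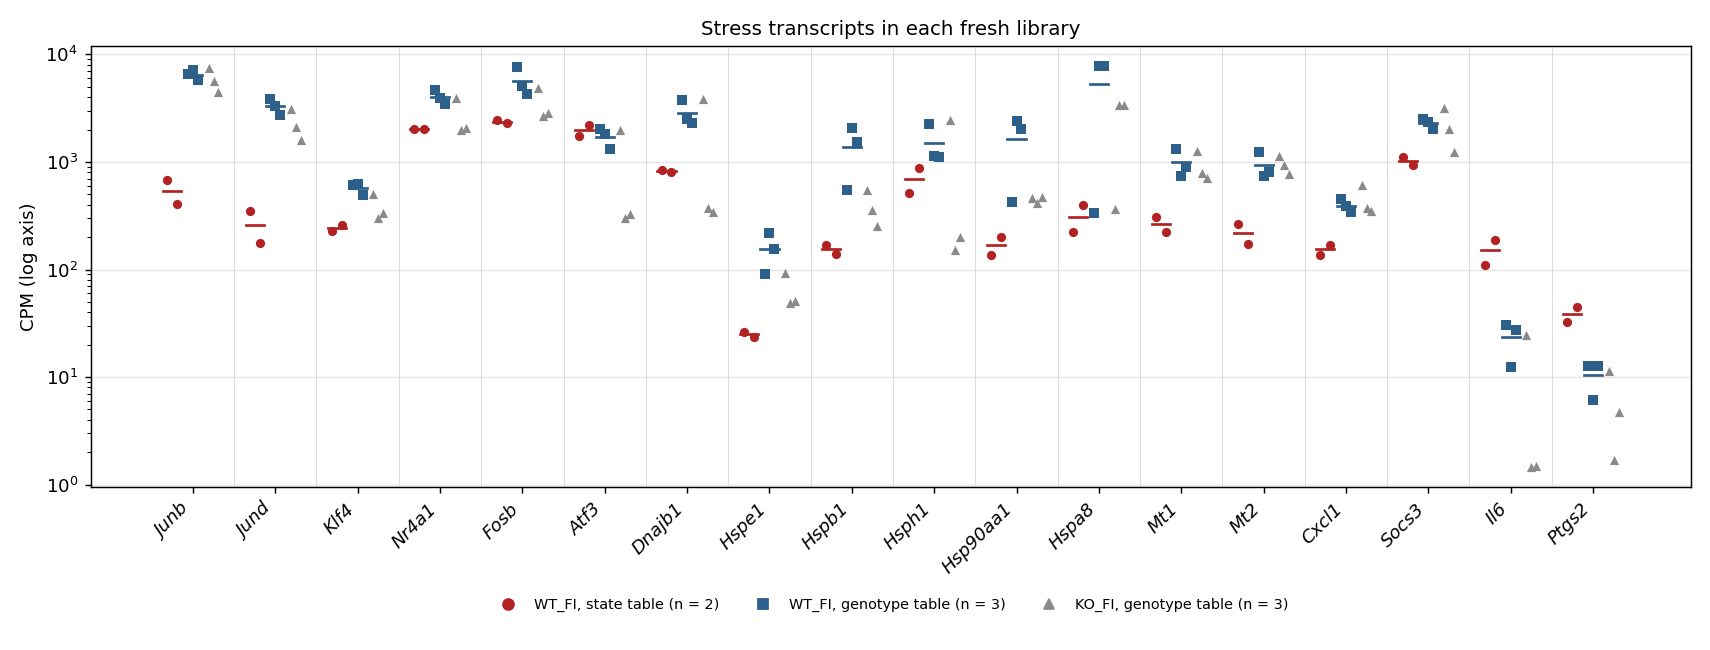
CPM (log axis) of 18 stress and inflammatory transcripts in each fresh library, marked as circles (state-table WT), squares (genotype-table WT) and triangles (KO_FI), with lines at the WT means. Junb lies at 674 and 408 CPM in the state-table libraries, against 5807 to 7133 CPM in the genotype-table WT libraries, and Il6 runs the other way; Dnajb1 and Hsph1 fall far lower in 2 of the 3 KO_FI libraries.

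Proliferation lists held few calls in edgeR and DESeq2. Of 20 G1/S and 21 G2/M genes, 0 were called by edgeR over the 5 libraries in either direction (medians −0.53 and −0.46), with 2 and 0 at an unadjusted p under 0.05, and DESeq2 called 2 and 0, all lower. The class term fit called 1, the replication helicase subunit Mcm4, lower (log2 fold −0.49, adjusted p = 0.0472, edgeR). Mki67, a protein of cycling cells, was at 67.1 and 32.2 CPM in the state-table libraries, against 75.8, 114 and 54.0 CPM in the genotype-table libraries (log2 fold −0.71, adjusted p = 0.283, edgeR). Of 17 ribosome biogenesis genes, 3 were called lower and 0 higher (median −0.95), beside 7.35% and 11.2% over all genes. With the class term 5 were lower and 0 higher. Both counts include Polr1b, a subunit of RNA polymerase I (log2 fold −1.10 over the 5 libraries), and Rrp9, a processing factor (−1.52).

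Ribosomal protein genes gave the lowest median of any list and the largest change of median from the 5 libraries to the class. Of 27 measured, 7 were called lower and 0 higher, with a median of −4.75, which was −1.45 within the class (7 lower, 0 higher) and −1.42 with the class term (17 lower, 0 higher). DESeq2 called all 27 lower over the 5 libraries. Rps2 was at 3.34 and 3.75 CPM in the state-table libraries, against 88.8 CPM in genotype index 0 and 2078 and 1137 CPM in genotype indices 1 and 2 (log2 fold −8.28, adjusted p = 0.0298, edgeR, and −4.65 within the class). Rps27 was lower without such a gap inside the genotype table, at 2.60 and 1.72 CPM, against 9.30, 12.4 and 10.8 CPM (log2 fold −2.32). Rplp1 had a log2 fold of −3.45, and −2.25 within the class, where it was not called (adjusted p = 0.076). Reads of these genes can be divided among pseudogenes, so their values are uncertain.

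Over all genes, the class itself differed for 1494 of 15653 genes (9.54%) in the 8-library fit, 439 higher (2.80%) and 1055 lower (6.74%) in the high-share libraries, and 414 of the 1055 were at least 8 times lower. Among the 439 were Thbs4 (log2 1.96, adjusted p = 0.00451, edgeR) and Pdgfra (1.83, adjusted p = 0.00827). Whether such gaps come from counting or from preparation was not tested. The scatter sets the fold over the 5 libraries beside the fold within the class. Medians were close for satellite cell (−1.22 and −1.36), fibroblast (1.37 and 1.25) and immediate early genes (−0.65 and −0.88). Single fibroblast genes moved, as Pdgfra from 1.93 to 0.97 and Dcn from 2.05 to 1.38. The class itself was called for Col1a2 (log2 1.26, adjusted p = 0.0207, edgeR), Postn (0.89, 0.0238) and Dcn (1.07, 0.0264), but not for Col1a1, Mfap5, Col3a1 or Ly6a. Ribosomal proteins and some chaperones lay left of the line of equal folds. Among the largest decreases that genotype index 0 shared with indices 1 and 2, Scand1, a SCAN domain gene, was at 0.407 and 0.150 CPM in the state-table libraries, against 27.3, 34.9 and 24.2 CPM in the genotype-table libraries (log2 fold −6.69, adjusted p = 0.0169, edgeR). Hs6st3, a heparan sulfate sulfotransferase, was at 0.325 and 0.562 CPM, against 23.2, 16.2 and 13.8 CPM (log2 fold −5.30).

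**Figure D5:**
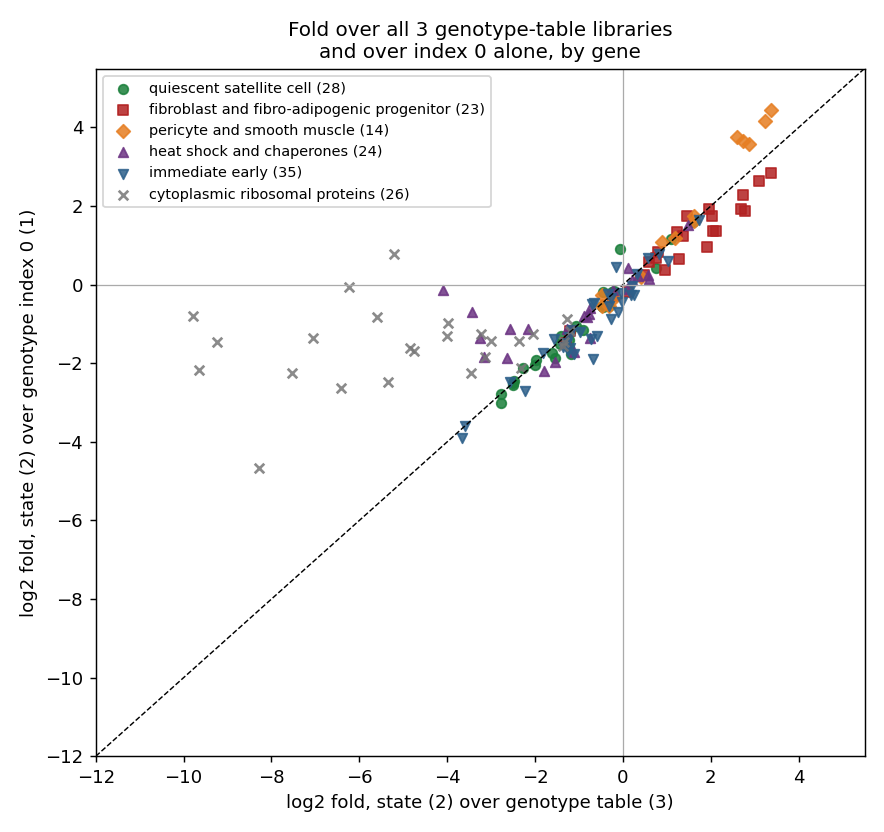
Log2 fold of the 2 state-table libraries over all 3 genotype-table libraries (x axis) and over genotype index 0 alone (y axis) for the measured genes of 6 lists, with the dashed line at equal folds. Satellite cell genes keep their decrease on both axes, whereas ribosomal protein genes, with a median of −4.75 on the x axis, have one of −1.45 on the y axis.

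Oxidative phosphorylation genes were higher in 3 of 24 measured (0 lower, median 0.29) and glycolysis genes in 2 of 18 (0 lower, median −0.23), beside 11.2% of all genes. With the class term 8 of the 24 and 5 of the 18 were higher and 0 lower, beside 13.5% of all genes. DESeq2 called 7 oxidative phosphorylation genes higher and 2 lower, and 3 glycolysis genes higher and 5 lower. Of the other lists, 0 of 6 histone genes and 0 of 5 sex-linked genes were called by edgeR, with 1 in each at an unadjusted p under 0.05, and DESeq2 called 0 and 1. Xist, the long RNA that coats the inactive X, was at 795 and 821 CPM in the state-table libraries, against 2259, 1907 and 904 CPM in the genotype-table libraries (log2 fold −1.06, adjusted p = 0.129, edgeR). Sirt1, the gene the study targets, was at 65.0 and 95.7 CPM, against 81.7, 48.8 and 45.8 CPM, and overlapped (log2 fold 0.45, adjusted p = 0.349). Gene length moved with the fold over the 5 libraries, with medians of −0.22, −0.09, 0.00 and 0.11 over 4 classes of equal size by rising length, and less within the class (−0.06 in the shortest and −0.01 in the longest).

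A like contrast could be made for cultured WT cells, between the 2 cultured libraries of the state table and the 2 of the table that sets SIRT1mKO against WT cultured cells (cultured genotype-table libraries). It shares the state table with the fresh contrast, but its other table is not that of the fresh genotype-table libraries. The cultured state-table libraries are of the high-share class and the other 2 of the low-share class, so table and class cannot be told apart there. In one fit of 9 WT libraries, edgeR called 1314 of 15684 genes between the cultured sets (8.38%), 1082 higher (6.90%) and 232 lower (1.48%) in the state-table libraries. Fibroblast genes were higher in 15 of 23 (median 4.16), mural genes in 11 of 14 (median 5.14) and Schwann genes in 9 of 10 (median 4.68), with 0 lower in each. Satellite cell genes were higher in 6 of 28 and lower in 0 (median 1.06). Col1a1 was at 129 and 398 CPM in the cultured state-table libraries, against 2.53 and 1.58 CPM in the others (log2 fold 7.00, adjusted p = 0.00382). The fresh contrast less the culture contrast was called for 119 genes (0.759%), 14 above 0 (0.0893%) and 105 below (0.669%), and edgeR called 0 without either fresh state-table library, with 1994 and 1434 genes at an unadjusted p under 0.05. DESeq2 called 1079 over the 9 libraries. Xist was at 419 and 1741 CPM in the cultured state-table libraries, against 1.27 and 2627 CPM in the cultured genotype-table libraries.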

How the data were processed

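The 5 fresh WT libraries were read from tables in Cuffdiff's read-group format, as the file headers show. The deposited raw fragments are expected counts, and the deposited FPKM values, 1 set per table and scaled to gene length by the format of these files, served only for relative gene length. Cuffdiff, TopHat, Bowtie, SICER and mm9 are named, without roles, by the submitters' processing notes. How strand was used, and each tool version, is not given in the sources used here. The columns give a condition and an index, not the replicate number of the labels; the letter for culture was matched because the other conditions were accounted for. Status left out 35 genes. Per-sample columns left out numbered 0.

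Counts were rounded and fitted with edgeR 4.0.16 (R 4.3.3; robust quasi-likelihood F test, TMM, filterByExpr), Benjamini-Hochberg adjusted over all genes. Fold changes are log2, state over genotype table; log2 CPM has a prior count of 2. Alternatives used DESeq2 1.42.0, limma 3.58.1 (voom), other scalings, no filter, a length offset and left-out libraries. The members, the 29 lists and the tests were chosen with earlier results of these data known. Lists are described by counts and medians, without a set test. Named genes were up to 14 of largest fold per direction among called, non-overlapping genes with at least 5 CPM, up to 4 per list with the smallest p, and fixed genes; predicted genes were passed over, and some genes of the lists are not reported here by name. Itga7, Cdh15, Sdc4, Dpt and Lyz2 are fixed cell type markers, and Acta1, Pdgfrb, Kcnj8 and Abcc9 likewise. Cd163 and Mcm4 were named after their values were seen. A promoter was listed for too few tested genes to check GC content. On simulated data of 15304 genes, 2 against 3, the fit recovered 12% of 2-fold and 84% of 4-fold changes, with 2 false calls.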

Additional observations from a re-analysis of the deposited data

Results flagged for a closer look

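Among the genes described above, 12 differed between their contrast in fresh cells and the culture contrast, which sets the same state table over another genotype table, by edgeR's test of the difference itself over 9 WT libraries with Benjamini-Hochberg adjustment. In each, the log2 fold of state over genotype table was lower in fresh cells than in culture. In culture the table goes with the counting class, and the part of either in these differences cannot be told apart. Each of these calls was lost without either fresh state-table library or either cultured genotype-table library, where edgeR called 0 genes in all.

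For 5 genes the fold was called below 0 in fresh cells and lay above 0 in culture. Mirg had log2 folds of −1.76 in fresh cells and 3.63 in culture, a difference of −5.39 (adjusted p = 0.0239, edgeR). Dpt had −1.29 and 3.96, a difference of −5.24 (adjusted p = 0.00937). Egr2 had −1.21 and 2.62, a difference of −3.82 (adjusted p = 0.0481). Chrdl2 had −2.51 and 2.02, a difference of −4.52 (adjusted p = 0.0414), although its culture fold alone did not pass (adjusted p = 0.0516). Zfp36l1 had −1.82 and 0.72, a difference of −2.54 (adjusted p = 0.0375), and its culture fold alone did not pass either (adjusted p = 0.153).

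Other stromal and glial genes had folds above 0 in both states. The difference was −4.10 for Mfap5 (adjusted p = 0.0103, edgeR), −4.94 for Tnmd (0.0428), −5.96 for Pdgfrb (0.0436), −4.83 for S100b (0.0263) and −4.70 for Sox10 (0.0198). Sox10 was at 94.6 and 141 CPM in the cultured state-table libraries, against 1.92 and 3.94 CPM in the cultured genotype-table libraries. Pdgfrb was at 45.5 and 202 CPM, against 1.07 and 1.05 CPM.

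Ccl2, a chemokine for monocytes, had a difference of −6.81 (adjusted p = 0.0259, edgeR), with 394 and 126 CPM in the cultured state-table libraries, against 2.28 and 4.56 CPM in the cultured genotype-table libraries. Abcc9, a channel subunit of pericytes, had one of −5.44 (adjusted p = 0.0428), with a fold of −0.18 in fresh cells that did not pass and of 5.27 in culture (adjusted p = 0.00767). No library of the 5 stood out by Dixon's ratio (critical value 0.71 for 5 samples) in any of 215 gene and list levels or depths. Where the table sets lay apart, the gap beside a single library was small against the whole range. The ratio could then hardly flag a library, and nothing is read from it.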

How the results depend on the processing

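Over the 5 libraries edgeR called 2832 genes, and limma-voom, upper-quartile factors, library totals, no filter on low counts, a gene length offset and genes of FAIL status kept gave counts within 1.5 times of it. DESeq2 called 5142 (2580 higher and 2562 lower), a fit of all 8 fresh libraries 4583 (2567 higher and 2016 lower), the class of like counting 1364 (778 higher and 586 lower), and the class term 1800 lower. Leaving out 1 library gave 0 to 3382 calls, or 3829 and 2403 with the class term, with 0 to 2009 higher (1672 at most without the class term, 1092 the least with it) and 0 to 1820 lower (1710 at most without it). The lowest counts, 0, came without either state-table library; without genotype index 1 and without index 2 there were 748 and 1324. The culture contrast (1314) gave 3020 by DESeq2, 598 from the 4 cultured libraries alone, and 254 to 2249 with 1 library left out, lowest without either cultured genotype-table library. The difference between states (119) gave 1079 by DESeq2 and 0 to 662 with 1 library left out.

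Of the 126 genes described, Lyz2 and Ddx3y left aside, 95 were called, and none of the 95 changed direction in any alternative run. All 95 kept their call in DESeq2 and with upper-quartile factors, 91 in limma-voom, 89 with library totals, 66 within the class, 85 with the class term, and 88, 50 and 63 without genotype index 0, 1 and 2, but 0 without either state-table library. With the class term, 73 kept it without state index 0 and 65 without index 1.

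Signs turned for these genes, none of them called over the 5 libraries, and these list medians. Myog turned to −0.27 in limma-voom and −0.054 with the class term, and ran over −3.22 to 1.69 with 1 library left out (−2.82 at the least in the 5-library test). Atf3 turned to −0.033 within the class and −0.997 with the class term (−1.22 and −0.84 with 1 library left out), and Sirt1 to −0.030 within the class and −0.30 with the class term without state index 1. With 1 of the 5 libraries left out Pecam1 ran over −0.15 to 0.84 (−0.056 with the class term without state index 1), Cdh5 over −0.17 to 0.84 (−0.074 in that fit), Kdr over −0.99 to 0.13, Ptprc over −2.75 to 0.0047, Abcc9 over −0.50 to 0.14 and Hbb-b1 over −1.28 to 1.82 (0.11 in limma-voom). The endothelial median turned to 0.090 in limma-voom and ran over −0.59 to 0.39 with 1 library left out (0.0056 without state index 0). The lymphocyte median turned to −0.48 in limma-voom, −0.47 within the class, −0.32 with the class term and ran over −2.72 to 0.96 with 1 library left out (−2.33 at the least in the 5-library test). The G2/M median turned to 0.10 within the class and ran over −1.52 to 0.049 with 1 library left out (0.078 with the class term without state index 1); the glycolysis median to 0.12 within the class and with the class term, and 0.11 without state index 1 there; and the histone median to 0.19 within the class and ran over −2.29 to 0.53 with 1 library left out. With 1 of the 5 libraries left out, the erythroid median ran over −2.32 to 0.65 and the sex-linked median over −0.34 to 0.99 (−0.75 with the class term without state index 1). The oxidative stress median turned to −0.14 with the class term without state index 0. The cause was not tested.

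No paired analysis was possible because the columns carry no replicate number of the labels. With 2 libraries against 3, few 2-fold changes were recovered in simulated data. The table cannot be told apart from preparation and sequencing, and most leukocyte and histone transcripts rest on few fragments.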
